A study of Mus musculus with 4 samples.

Results

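Gjb2, Gjb6 and Gja1 encode the connexins Cx26, Cx30 and Cx43, and they are the 3 genes described here, of 27998 genes in the deposited matrices. They were chosen by measured values: their UMI levels in each library, their correlation with the milk genes Wap, Glycam1 and Csn2 over early lesion cells, and their loss in the primary tumor. Those quantities are therefore given as a description and support no statement. They are called lactation gap junction genes only as a working name, which the values that chose them cannot check. Gja1 went against that name, with 14 UMIs in the early lesion and an r of -0.02 to -0.07 with the milk genes over its cells.

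Connexins assemble as rings in the cell membrane, and rings of adjoining cells dock to form gap junction channels that pass ions and small molecules from cell to cell. In the mouse mammary gland, Cx26 and Cx30 are known from the luminal, milk-secreting epithelium, where both increase towards lactation and can form mixed channels. Cx43 is known there chiefly from the contractile myoepithelial cells that surround the alveoli.

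RNA of single cells was counted in 4 droplet libraries from FvB mice with the MMTV-neu transgene, whose viral MMTV promoter directs the neu (Erbb2, HER2) oncogene to mammary epithelium. The late stage, over 20 weeks of age, gave a late lung library and a primary tumor library. The early stage, 14 to 18 weeks with no palpable tumor, gave an early lung library and a library from the mammary gland, called early lesion here. All were sorted as CD45- HER2+ cells, lung cells are labelled as disseminated cancer cells, and whether a library held 1 mouse or several is not given in the sources used here. With 1 library per group no test between groups was possible, so each interval is an exact 95% interval for counting error only, and no value shows the spread between mice.

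A barcode with at least 500 UMIs (a UMI tags 1 captured RNA molecule), at least 250 genes and at most 20% mitochondrial UMIs was taken as a cell. That gave 210 late lung cells, 434 primary tumor cells, 185 early lung cells and 1318 early lesion cells, with median depths of 811, 1657.5, 772 and 2360 UMIs in that order. In the tumor, 18 cells over 10000 UMIs held 54.5% of all cell UMIs, and in the late lung 8 such cells held 42.2%. The mammary luminal markers were present in 10 of 10 in both primary site libraries, at 56585 CPM (UMIs of a gene per 1000000 UMIs of the summed cells) in the tumor and 27085 CPM in the lesion. They summed to 2196 CPM in the late lung and 1164 CPM in the early lung, where lung cell genes led the clusters, so the lung libraries do not show what mammary cells in the lung expressed. Ptprc (CD45), the marker sorted against, had 4 UMIs in 2 lesion cells and 0 elsewhere, and Erbb2 had 7.28 CPM in the late lung, 47.6 in the tumor, 14.7 in the early lung and 7.64 in the early lesion.

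On mm10, Gjb2 (ENSMUSG00000046352) lies on chromosome 14 at 57098600 to 57104702, minus strand, and Gjb6 (ENSMUSG00000040055) on the same strand at 57123303 to 57133611, so that 18.6 kb separate the neighbours. Gja1 (ENSMUSG00000050953) lies on chromosome 10 at 56377330 to 56402513, plus strand. The sequences around the start sites (RefSeq, GRCm38.p6, 250 bases before and 50 after the start, read 5′ to 3′ on the gene's strand) are shown because Gjb2 and Gjb6 were found in the same cells and the same library, and Csn2, the beta-casein gene, is shown as the milk gene with the most UMIs of the 3 that chose the members. Capitals mark matches, on either strand, to TTCNNNGAA (the STAT motif), GGGCGG (the GC box), TGAGTCA (the AP-1 motif) or TATAAA (the TATA box), and no matches overlapped.
Gjb2, chr14:57104653-57104952, minus strand: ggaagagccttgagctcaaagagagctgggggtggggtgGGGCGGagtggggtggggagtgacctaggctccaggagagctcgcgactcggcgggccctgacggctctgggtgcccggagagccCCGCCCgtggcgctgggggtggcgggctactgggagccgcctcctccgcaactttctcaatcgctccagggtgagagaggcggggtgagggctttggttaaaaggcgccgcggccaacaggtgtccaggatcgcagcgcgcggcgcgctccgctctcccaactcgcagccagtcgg
Gjb6, chr14:57133562-57133861, minus strand: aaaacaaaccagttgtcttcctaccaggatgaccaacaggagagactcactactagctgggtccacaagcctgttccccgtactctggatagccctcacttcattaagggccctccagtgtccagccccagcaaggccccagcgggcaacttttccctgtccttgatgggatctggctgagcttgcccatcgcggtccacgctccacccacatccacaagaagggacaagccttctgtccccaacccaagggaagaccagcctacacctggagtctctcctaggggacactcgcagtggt
Gja1, chr10:56377050-56377349, plus strand: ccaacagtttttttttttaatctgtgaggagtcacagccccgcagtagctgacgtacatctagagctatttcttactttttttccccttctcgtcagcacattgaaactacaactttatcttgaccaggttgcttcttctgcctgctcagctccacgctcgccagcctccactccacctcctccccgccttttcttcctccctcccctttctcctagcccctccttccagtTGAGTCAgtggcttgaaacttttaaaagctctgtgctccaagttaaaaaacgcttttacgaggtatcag
Csn2, chr5:87699376-87699675, minus strand: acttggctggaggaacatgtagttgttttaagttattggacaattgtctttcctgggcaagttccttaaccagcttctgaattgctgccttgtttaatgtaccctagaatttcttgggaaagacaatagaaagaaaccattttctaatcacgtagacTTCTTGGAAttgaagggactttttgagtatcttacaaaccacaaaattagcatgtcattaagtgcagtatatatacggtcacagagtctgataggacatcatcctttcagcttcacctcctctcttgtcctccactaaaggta
The Gjb2 window was 70.0% G and C, with GC boxes 211 and 126 bases before the start. The Gjb6 window was 57.3% G and C and held none of the 4 motifs. The Gja1 window was 47.7% G and C, with an AP-1 motif 19 bases before the start, and the Csn2 window was 38.7% G and C, with a STAT motif 93 bases before it. The windows of the other milk genes are not shown. That of Wap held none of the 4 motifs, and that of Glycam1 held a STAT motif 145 bases before the start. The median G and C content of 32851 promoters was 52.7%. Of these promoters, 8.30% held the STAT motif, 35.7% the GC box, 5.20% the AP-1 motif and 13.6% the TATA box. A match describes letters in this window and is neither a binding site nor a cause, and the windows of the neighbouring Gjb2 and Gjb6 shared none of the 4 motifs.

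Gjb2 was a gene of the early lesion. Its summed level was 0 CPM in the late lung (0 UMIs, where 3 counts would be 7.28 CPM) and 8.76 CPM in the primary tumor (16 UMIs, 5.01 to 14.2 CPM). It was 4.91 CPM in the early lung (1 UMI, 0.124 to 27.4 CPM) and 329 CPM in the early lesion (1291 UMIs, 311 to 347 CPM). The lesion stood apart from the other libraries by these intervals, and the order of the others could not be told at this depth. A Gjb2 UMI was found in 0 of 210 late lung cells (3 cells would be 1.43%, and the exact interval ends at 1.74%), in 11 of 434 tumor cells (2.53%, 1.27% to 4.49%) and in 1 of 185 early lung cells. In the lesion 583 of 1318 cells had one (44.2%, 41.5% to 47.0%).

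Thinning each cell to 1000 UMIs removed the difference in depth but left out 122 tumor cells and 277 lesion cells. Gjb2 was then found in 4 of 312 tumor cells (1.28%, 0.350% to 3.25%) and in 261 of 1041 lesion cells (25.1%, 22.5% to 27.8%). The lesion share was again the higher one at equal depth. Of the 16 tumor UMIs, 13 lay in 8 of the 18 cells over 10000 UMIs, and the other 416 cells had 3. The tumor's free RNA, taken from barcodes with 1 to 50 UMIs, held Gjb2 at 23.1 CPM (13.5 to 37.1), above the 8.76 CPM of its cells. The part of free RNA in the tumor's 16 UMIs was not tested.

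Gjb6 was found in the early lesion alone. It had 592 UMIs there, or 151 CPM (139 to 163), in 348 cells (26.4%, 24.0% to 28.9%), and 120 of 1041 thinned lesion cells held it (11.5%). It had 0 UMIs in the cells and 0 in the free RNA of the late lung, the primary tumor and the early lung. The exact intervals for the share of cells with a Gjb6 UMI end at 1.74% in the late lung, 0.846% in the tumor and 1.97% in the early lung, where 3 cells would be 1.43%, 0.691% and 1.62% in that order. These limits concern cells with a UMI at this depth, not cells that express the gene. The CPM of these 3′ UMI libraries does not scale with gene length, and on that scale Gjb2 ranked 383 and Gjb6 ranked 831 among the lesion's genes.

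Gja1 was rare in each library. It had 4 UMIs in 4 late lung cells (9.71 CPM, 2.65 to 24.9) and 1 UMI in the primary tumor (0.548 CPM, 0.0139 to 3.05). It had 3 UMIs in 3 early lung cells (14.7 CPM, 3.04 to 43.0) and 14 UMIs in 12 early lesion cells (3.57 CPM, 1.95 to 5.98). The intervals of neighbouring levels overlapped, which does not by itself settle their order. The late lung over the tumor had a log2 ratio of 3.73 (0.81 to 9.77) on 4 and 1 UMIs, below the minimum of 20 for a call. No order is read from counts this low. Of the lung UMIs, 2 in the late lung and 2 in the early lung were in the alveolar type 1-like cluster, named from markers such as Ager and Cldn18.

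**Figure D1:**
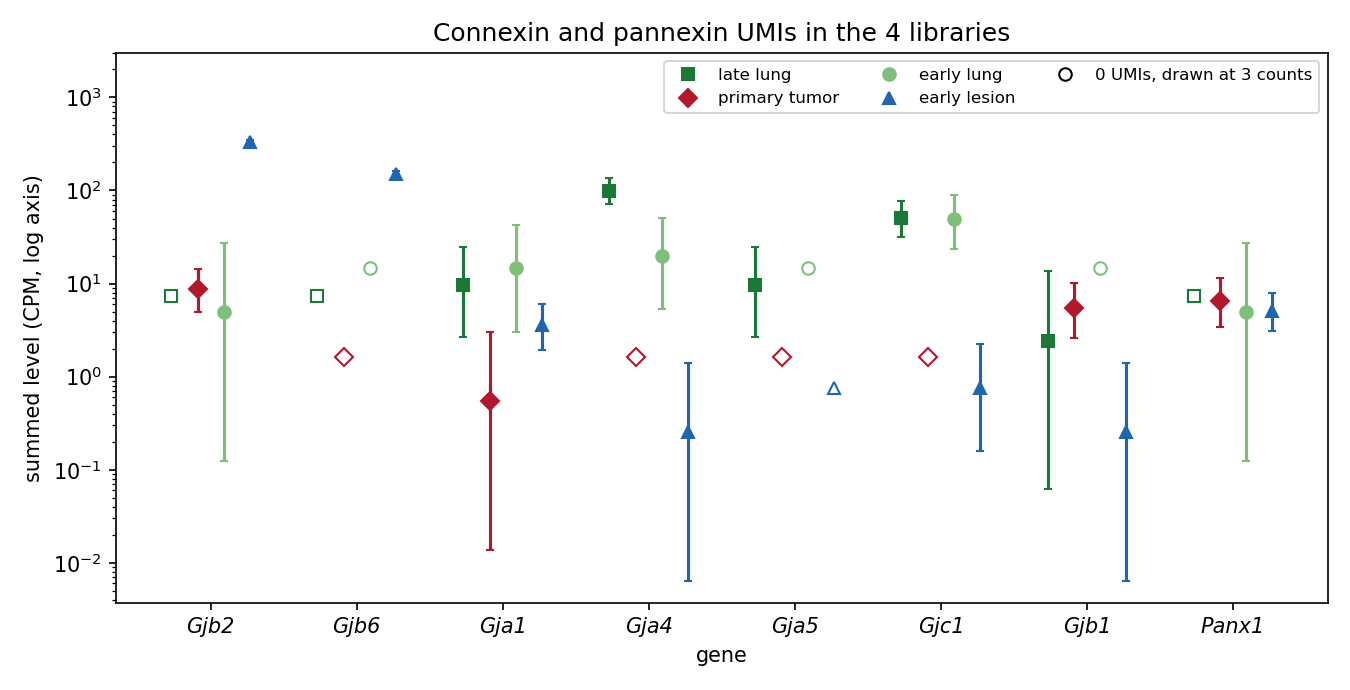
Summed level in CPM (log axis) of 8 connexin and pannexin genes in the late lung, primary tumor, early lung and early lesion libraries, 1 point per library with its exact 95% counting interval; open symbols mark 0 UMIs and are drawn at the level of 3 counts. Gjb2 and Gjb6 are high in the early lesion (329 and 151 CPM), Gja1 is low in all 4 libraries, and Gja4 and Gjc1 are highest in the lungs.

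In the primary tumor, Gjb2 and Gjb6 were far lower than in the early lesion. Gjb2 had 16 against 1291 UMIs, a log2 ratio of CPM of -5.19 (-6.04 to -4.52), or 36.4-fold lower in the tumor. Without cells over 10000 UMIs the ratio was -6.27, and in thinned cells -4.49. Gjb6 had 0 against 592 UMIs and was 91.8-fold lower, counted against a floor of 3 UMIs in the tumor sum. Its exact interval ended at a log2 ratio of -6.22, which is a smaller fold. Gja1 had 1 against 14 UMIs (-2.17, -8.10 to 0.01), too few for the minimum of 20 UMIs over both sums. Calls needed a 2-fold or larger ratio with an interval that excludes 1, so 2 of the 3 connexin genes were called lower, where 6.68% of all 9811 genes compared were lower and 24.5% higher. The choice of the genes used this contrast, so nothing is read from that count.

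The 3 milk genes used in the choice were lower as well. Wap, the whey acidic protein gene, had 6 UMIs in the tumor against 1591 in the lesion (-6.83, -8.39 to -5.82). Glycam1, a mucin gene of milk, had 3 against 18967 (-11.30, -13.80 to -9.97), and Csn2 had 117 against 205665 (-9.67, -9.95 to -9.41). Of the genes compared, 61 had a lower ratio than Gjb2 and 8 a lower ratio than the fitted -9.11 of Gjb6. Gjb6 had 0 tumor UMIs, so its fitted ratio and its rank depend on the added counts. The ratio was -5.80 with 5 added counts, and the exact interval ended at -6.22. The choice of the genes used this contrast, so nothing is read from these ranks. Over all genes the median log2 ratio was 0.33, and 0.20 when totals left out the milk genes. Of the genes called, 21.4% were lower, against 27.1% with those totals, 39.3% in thinned cells and 41.4% without cells over 10000 UMIs.

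**Figure D2:**
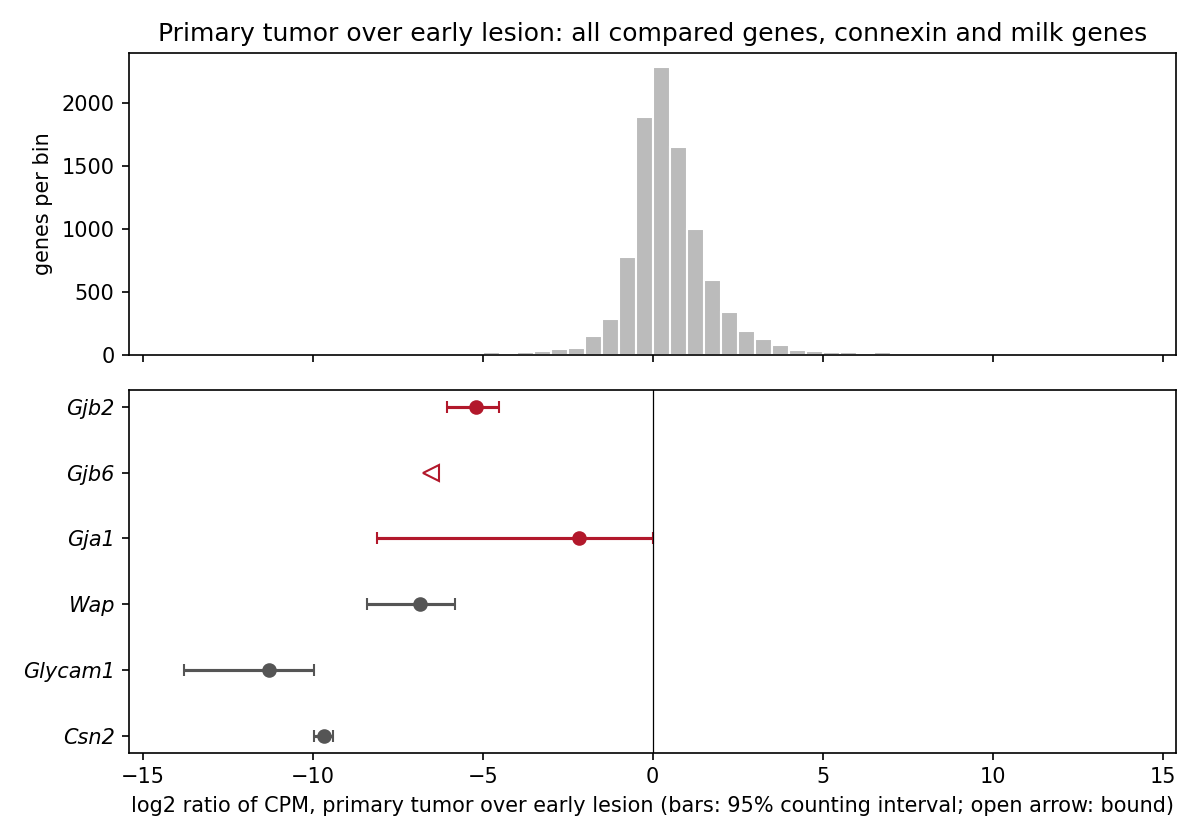
Upper panel, number of genes (vertical axis) by log2 ratio of CPM, primary tumor over early lesion, for the 9811 genes compared; lower panel, the ratio of Gjb2, Gjb6, Gja1 and 3 milk genes with exact 95% counting intervals as bars. Gjb2 lies at -5.19, and the interval of Gja1 reaches 0. The open arrow of Gjb6 is drawn against a floor of 3 UMIs (91.8-fold lower), and its exact interval ends at -6.22.

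Other milk genes did not all follow them. Of 25 milk and alveolar genes, 23 could be compared, and 13 were lower in the tumor, 5 higher and 5 neither, with a median log2 ratio of -1.59, beside 0.33 for all genes. The alpha-casein genes Csn1s2a (-3.95, 6563 against 217884 UMIs) and Csn1s1 (-1.59, 10372 against 66946) were lower. Wfdc18, a gene of the whey acidic protein family, was higher (1.72, 67308 against 44024). The tumor cells carried many milk gene UMIs, 8.89% of their total against 16.5% in the lesion, while Gjb2 had 8.76 CPM and Gjb6 was at 0. The free RNA of the tumor was 6.69% milk genes and that of the lesion 16.1%, and the part of free RNA in the cells' milk counts was not tested.

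Genes of the hormone pathway that drives lactation were called in both directions. Of 10 genes from the prolactin receptor to Stat5 and its targets, 2 were lower in the tumor, 3 higher and 5 neither (median -0.12), where 6.68% of all genes compared were lower and 24.5% higher (median 0.33). Elf5, a transcription factor of alveolar cells, had 386 against 3465 UMIs (-2.06, -2.22 to -1.91). Socs2, a target and inhibitor of the pathway, had 1792 against 55 (6.12, 5.74 to 6.55), Nfib, a transcription factor gene, had 1209 against 641 (2.02), and Prlr, the prolactin receptor, 89 against 95 (1.01). Genes that encode partners of gap junctions, such as the scaffold Tjp1, cadherin and catenins, mostly passed no call: 12 of 14 could be compared, 11 were neither and 1 lower, with a median of -0.03. For the partner genes, 1 in 12 lower is near the 6.68% of all genes, and 0 of 12 were higher, where 24.5% of all genes were. Nothing is read from the counts of this list or of the prolactin to Stat5 list. The lower one was Cav1, a membrane scaffold gene, with 3 against 25 UMIs (-1.76, -4.33 to -0.24).

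Among 23 connexin and pannexin genes, 3 had the UMIs to be compared between tumor and lesion. Besides Gjb2 and Gjb6 this was Panx1, a channel gene of the related pannexin family, with 12 UMIs in the tumor against 20 in the lesion (0.39, -0.80 to 1.47), which passed no call. Gjb1, which encodes Cx32 and is named after its values were seen, had 10 UMIs in 5 tumor cells and 1 in the lesion, below the minimum. Of its tumor UMIs 9 lay in cells over 10000 UMIs. At 5.48 CPM it had the highest level in the tumor after Gjb2 among the connexin genes.

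Markers listed for basal and myoepithelial cells, where Gja1 is known in the gland, were few in the tumor. They summed to 33 UMIs (18.1 CPM) with 4 of 10 markers detected in the tumor, where Krt5, Krt14, Krt17, Myh11, Cnn1 and Tagln were at 0. In the lesion they summed to 1710 UMIs (436 CPM) with 10 of 10 detected. The same list summed to 211 CPM in the early lung and 451 CPM in the late lung, with Krt14, Krt17, Trp63 and Oxtr at 0 in both. It includes Acta2, Myh11 and Tagln, which also mark smooth muscle and pericytes, so its sum does not mark myoepithelial cells alone. The part of such cells in the Gja1 counts was not tested.

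In the early lung, Gjb2 and Gjb6 were again lower than in the early lesion, at the same stage. Gjb2 had 1 against 1291 UMIs (-5.48, -11.37 to -3.58). Gjb6 had 0 against 592 and was 10.2-fold lower against a floor of 3 UMIs, with an exact interval that ended at a log2 ratio of -3.05. Gja1 had 3 against 14 UMIs, a ratio whose interval spans 0 (2.22, -0.39 to 3.89). The background of this comparison was 11.9% of 8776 genes lower and 22.1% higher, with a median of 0.18. Of the milk genes, the 3 used in the choice included, 18 of 22 were lower and 2 higher. The median was -6.87, and -4.74 with genes at 0 UMIs set to 3 counts. This comparison shares the lesion library with the one above, and it sets lung cell classes against mammary cells.

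Of the gap junction partner genes in the early lung, 5 of 12 were higher, 1 lower and 6 neither (median 0.99). Among all genes compared, 22.1% were higher and 11.9% lower (median 0.18). The lung and mammary cell classes differ, so nothing is read from the counts of this list. Cav1, abundant in endothelial and alveolar type 1 cells, had 212 against 25 UMIs (7.33, 6.75 to 8.01). The catenin genes Ctnna1 (2.24) and Ctnnb1 (1.75), which link cadherins to the cell skeleton, were higher, and the tubulin gene Tubb5 was lower (-1.37). Of the prolactin to Stat5 genes, Elf5 (-5.68) and Stat5a (-3.61) were lower and Socs2 (11 against 55 UMIs) and Jak2 (1.95) higher (median 0.24).

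In the late lung against the primary tumor, none of the 3 genes had the UMIs to be called. Gjb2 had 0 against 16 UMIs, with an upper bound of the log2 ratio at 0.20. Gjb6 was at 0 in both libraries, and Gja1 had 4 against 1 UMI (3.73, 0.81 to 9.77), below the minimum of 20. The connexins of the late lung were others. Gja4, which encodes Cx37 and is known from blood vessel endothelium, had 41 UMIs in 20 cells (99.5 CPM, 71.4 to 135) against 0 in the tumor. That was 60.6-fold higher against a floor of 3 UMIs, with an exact interval from a log2 ratio of 5.56 upwards. Gjc1, which encodes Cx45 and is known from vascular smooth muscle, had 21 UMIs in 11 cells (51.0 CPM, 31.5 to 77.9) against 0. That was 31.0-fold higher against the same floor, with an exact interval from 4.53 upwards. Of 8740 genes compared, 20.6% were higher and 17.4% lower.

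Most Gja4 UMIs of the late lung, 33 in 15 cells, lay in the endothelial-like cluster (55 late lung cells), as did 16 of the 21 Gjc1 UMIs. A further 8 Gja4 and 5 Gjc1 UMIs lay in 26 cells of a cluster led by the contractile genes Rgs5 and Acta2. Scaled to the UMIs of each cluster, Gja4 had 163 CPM (112 to 229) in the endothelial-like cluster and 300 CPM (129 to 591) in the contractile-led one. Gjc1 had 78.9 CPM (45.1 to 128) and 187 CPM (60.9 to 437) in that order, and the intervals overlapped for both genes. Of the 41 Gja4 UMIs, 22 lay in the 8 cells over 10000 UMIs, as did 8 of the 21 of Gjc1, which leaves 19 and 13 UMIs in the other late lung cells. The early lung had Gja4 at 19.6 CPM in its cells (4 UMIs) and 42.8 CPM in its free RNA, and Gjc1 at 49.1 CPM (10 UMIs in 4 cells). Of those Gjc1 UMIs, 9 lay in 3 cells of the contractile-led cluster. Cav1 was also higher in the late lung than in the tumor (426 against 3 UMIs, 9.08). Of the partner genes 4 of 12 were higher and none lower, where 20.6% of all genes compared were higher and 17.4% lower. Of the milk genes 13 of 17 were lower and none higher (median -5.02), and of the prolactin to Stat5 genes 4 of 9 were lower and 1 higher (median -0.84).

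Within the early lesion, Gjb2 and Gjb6 were spread over many cells rather than held by a few. Of the cells with Gjb2, 284 had 1 UMI, 299 had at least 2, 57 had at least 5, and the highest had 15. Gjb6 had 1 UMI in 236 cells, at least 2 in 112 and at most 14. In cells thinned to 1000 UMIs, the variance over the mean was 1.26 for Gjb2 and 1.21 for Gjb6, and 1.30 for the epithelial adhesion gene Epcam, at means of 0.325, 0.134 and 0.831 UMIs a cell. This ratio grows with the mean, so it does not rank these genes by evenness.

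The lesion's cells fell into 5 main clusters, and both genes were found in each. Gjb2 had 369.7 CPM in the 295 cells led by genes such as Wap and Glycam1, 376 CPM in 94 cells led by C1qa and Pf4, and 341 CPM in 235 cells led by cell cycle genes such as Kif2c and Ccnb1. It had 300.5 CPM in 188 cells led by Fosb and Atf3 and 292 CPM in 463 cells led by globin genes and Cidea. Gjb6 ran between 115 CPM in the C1qa cluster and 187 CPM in the Wap cluster. The clusters were drawn from the same counts, so these levels are a description.

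Lesion cells with little milk RNA had less of both genes. A set of 38 lesion cells in clusters led by endothelial, contractile, fibroblast or Cxcl13 genes had 3 Gjb2 UMIs in 3 cells (67.0 CPM, 13.8 to 196) and 1 Gjb6 UMI (22.3 CPM, 0.566 to 124). The other 1280 cells had Gjb2 at 332 CPM (314 to 350) and Gjb6 at 152 CPM (140 to 165). Cells of the 38 had a median of 984.5 UMIs, against 2445.5 in the others. Of the 38 cells, 7.89% (1.66% to 21.4%) had a Gjb2 UMI, beside 44.2% of all lesion cells. The 38 were set apart by cluster and were shallower, so they give no measure of background. Csn2 was found in 37 of them and Glycam1 in 17. The lesion's free RNA held Gjb2 at 341 CPM (314 to 370) and Gjb6 at 134 CPM (117 to 152), close to the levels of its cells, and the part of free RNA in the counts of single cells was not tested.

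**Figure D3:**
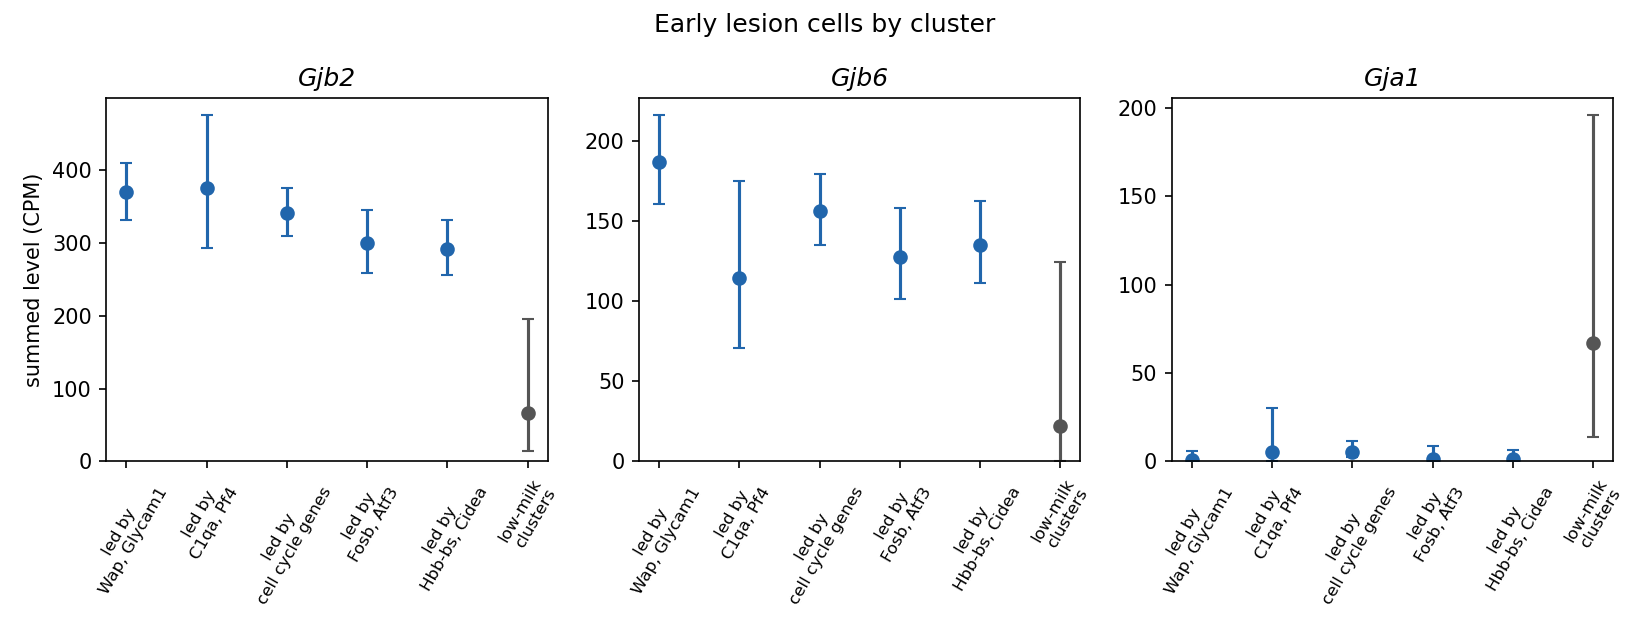
Summed level in CPM of Gjb2, Gjb6 and Gja1 in the 5 main clusters of early lesion cells (blue, named by leading genes) and in 38 cells of 4 clusters with little milk RNA (grey); bars are exact 95% counting intervals. Gjb2 lies between 292 and 376 CPM in the main clusters and at 67.0 CPM in the 38 cells, and Gja1 shows the opposite order on 3 UMIs.

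The Gja1 counts of the lesion came from few cells. Of its 12 cells, 6 lay in the cell cycle cluster, 9 also had Gjb2, and 8 had no UMI of a basal marker. Another cell, in the cluster led by Rgs5 and Acta2, had 2 Gja1 UMIs and 72 basal marker UMIs. In the 38 cells above Gja1 had 3 UMIs (67.0 CPM), against 11 UMIs (2.83 CPM) in the other 1280. Counts of this size allow no statement on the cell type that carries Gja1 in the lesion.

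Both genes were higher in lesion cells with more milk RNA. Cells were ordered by the share of their UMIs from the milk genes and cut into 4 bins of 329 or 330 cells, and each gene was given as CPM of the UMIs that are not from milk genes. Gjb2 had 171 (142 to 204), 314 (277 to 355), 498 (452 to 547) and 546 (498 to 597) CPM in bins 1 to 4, where 1 is the lowest in milk. Gjb6 had 49.0 (34.2 to 68.2), 146 (121 to 174), 242 (211 to 277) and 259 (226 to 295) CPM. The highest bin was 3.19-fold above the lowest for Gjb2 and 5.28-fold for Gjb6, and for each gene the intervals of bins 3 and 4 overlapped. The choice of total matters here, since milk UMIs are most numerous in bin 4. As CPM of all UMIs, Gjb2 had 162, 278, 409 and 403 in bins 1 to 4, and Gjb6 had 46.4, 129, 199 and 192. On that scale neither gene rose from bin 3 to bin 4.

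Depth moved along with the milk share, with medians of 1727.5, 2218, 2560 and 3017 UMIs in bins 1 to 4. In cells thinned to 1000 UMIs, an alternative added after seeing the data, the highest bin was 2.48-fold above the lowest for Gjb2 and 3.04-fold for Gjb6. Gja1 had 10 UMIs in bin 1, then 1, 3 and 0. The ratio of Gjb6 to Gjb2 UMIs was 0.287 (0.191 to 0.421) in the lowest bin. It was 0.463 (0.369 to 0.578), 0.486 (0.411 to 0.574) and 0.475 (0.403 to 0.557) in bins 2 to 4, with intervals that overlap that of the lowest. In thinned cells the ratio was 0.333 (0.180 to 0.587) in the lowest bin. Since correlation with milk genes chose these genes, the gradient is no independent result.

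**Figure D4:**
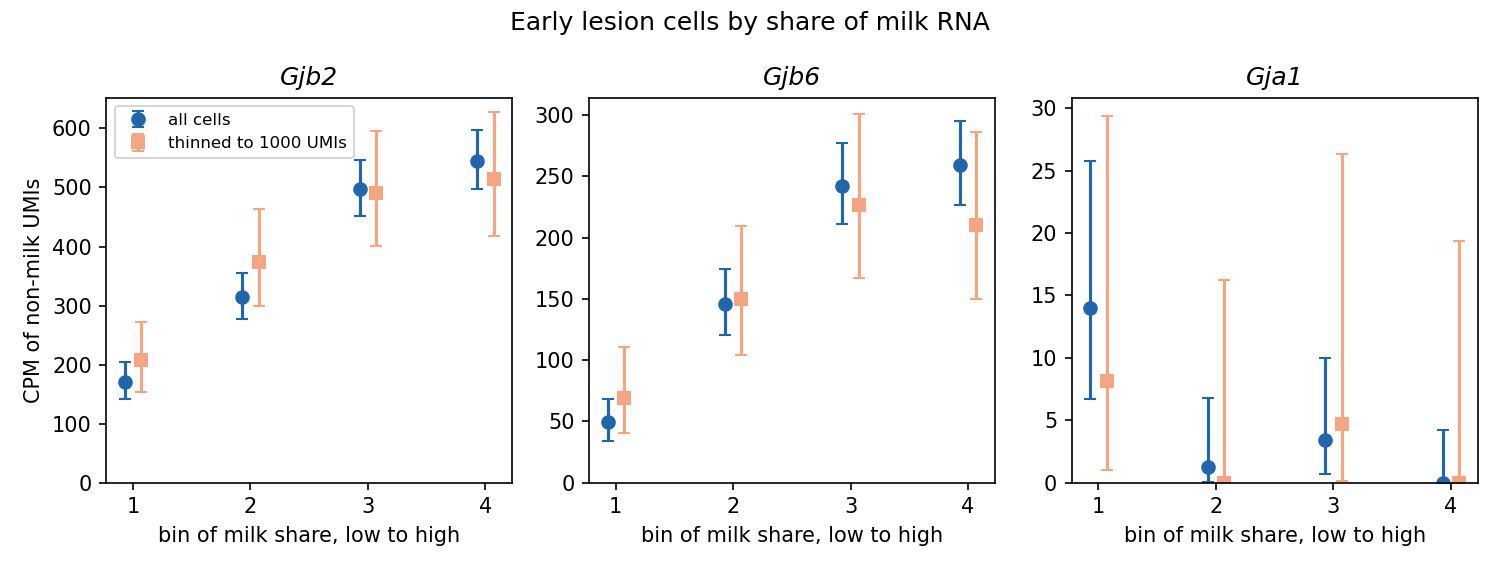
Level of Gjb2, Gjb6 and Gja1 in CPM of the UMIs that are not from milk genes, in 4 bins of early lesion cells by milk share (horizontal axis, low to high), for all cells (circles) and for cells thinned to 1000 UMIs (squares); bars are exact 95% counting intervals. Gjb2 lies at 171 in the lowest and 546 in the highest bin and Gjb6 at 49.0 and 259, while Gja1 has 10 of its 14 UMIs in the lowest.

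Over single cells the correlations behind the choice were weak. Over 1318 lesion cells of the same library, on the scale of log(1 + UMIs per 10000), Gjb2 had a Pearson r of 0.18 with Wap, 0.18 with Glycam1 and 0.24 with Csn2. Gjb6 had 0.12, 0.18 and 0.24 with the same genes, and Gja1 had -0.02, -0.07 and -0.07. The cells share their depth as well, and the log of total UMIs had an r of 0.23 with Gjb2 and 0.21 with Gjb6. In 1041 thinned cells the r of Gjb2 was 0.088 with Wap, 0.057 with Glycam1 and 0.12 with Csn2, and that of Gjb6 was 0.035, 0.091 and 0.13. The same 1041 cells at full depth gave 0.15, 0.16 and 0.24 for Gjb2 and 0.12, 0.16 and 0.23 for Gjb6. Over all cells with the log of total UMIs held fixed, r was 0.15, 0.14 and 0.20 for Gjb2 and 0.091, 0.14 and 0.20 for Gjb6. At 1 or 2 UMIs a cell, r values of this size are no finding.

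Gjb2 and Gjb6 were also found together. Of 583 lesion cells with Gjb2, 232 had Gjb6 (39.8%, 35.8% to 43.9%), and of 735 without Gjb2, 116 did (15.8%, 13.2% to 18.6%). At equal depth the gap was smaller: 43 of 261 thinned cells with Gjb2 had Gjb6 (16.5%, 12.2% to 21.5%), against 77 of 780 without (9.87%, 7.87% to 12.2%). The r between them was 0.22 over all cells and 0.10 over thinned ones.

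Among 2571 genes found in at least 10% of lesion cells, the gene most like both Gjb2 and Gjb6 was Csn1s2a, at r 0.28 with Gjb2 and 0.25 with Gjb6. For Gjb2 it was followed by Csn2 (0.24), Xbp1 (0.23), a transcription factor gene of secretory cells, Gjb6 (0.22), Csn1s1 (0.22), G0s2 (0.21), Thrsp (0.20) and Plin2 (0.20). For Gjb6 it was followed by Csn2 (0.24), Gjb2 (0.22), G0s2 (0.22), Thrsp (0.21), Muc15 (0.20), Plin2 (0.20) and Acot1 (0.20). Of the 8 genes each, 5 were the same and 5 were on the milk list, and G0s2, Thrsp and Plin2 are known from lipid storage and synthesis. The 95th percentile over all 2571 genes was 0.099 for Gjb2 and 0.096 for Gjb6, and thinned cells kept 4 of the 8 for Gjb2 and 3 of the 8 for Gjb6.

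At the other end, r was lowest with Gas6 (-0.13), Crip1 (-0.10) and Anxa2 (-0.09) for Gjb2, and with Anxa2 (-0.11), Crip1 (-0.09) and Cst3 (-0.09) for Gjb6. The 5 genes on both lists were all called lower in the tumor than in the lesion, where 6.68% of all 9811 genes compared were lower. Their log2 ratios were -9.67 for Csn2, -3.95 for Csn1s2a, -2.70 for Thrsp, -1.84 for Plin2 and -1.36 for G0s2. These genes were picked for likeness to genes chosen by their loss in the tumor. Csn2 was itself used in the choice, so nothing is read from that count. On the list of Gjb2 alone, Csn1s1 was at -1.59, Xbp1 at 0.07 with no call, and Gjb6 had 0 tumor UMIs. On that of Gjb6 alone, Muc15 was at -3.08 and Acot1 at -3.94. Of these named genes, Csn2 and Gjb6 were lower than Gjb2 (-5.19) and the others were not. For Gja1, found in 12 cells, the highest r was 0.18 with Malat1, and the ranking rests on those cells.

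**Figure D5:**
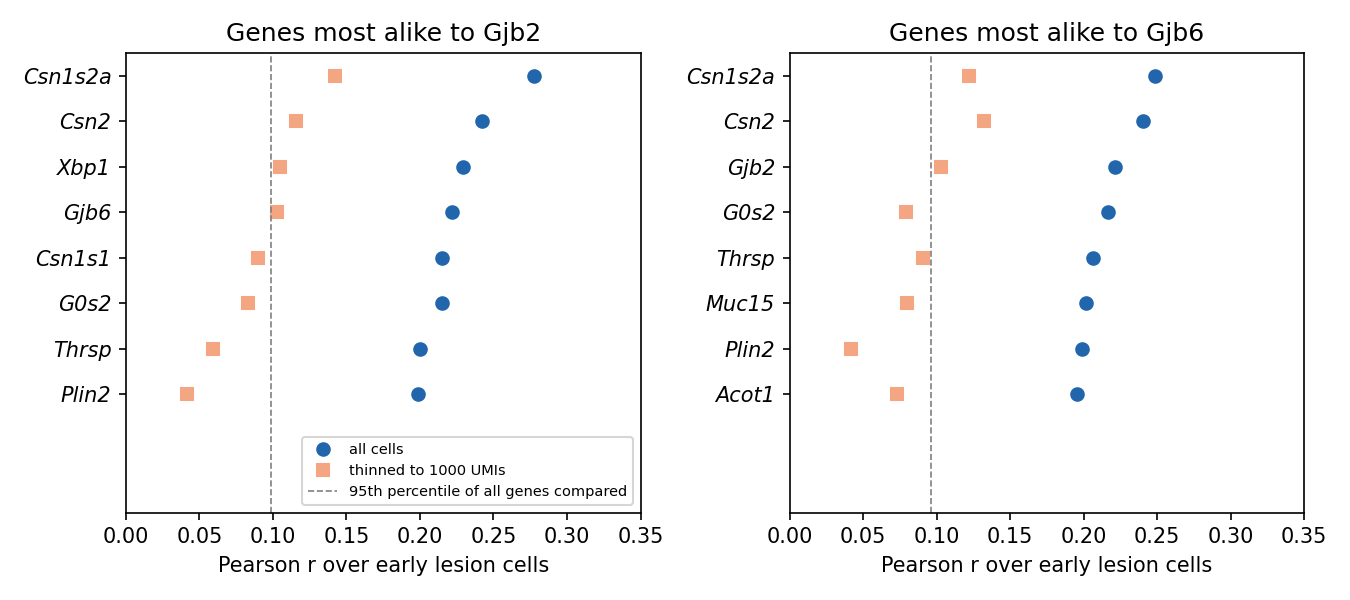
Pearson r over early lesion cells between Gjb2 (left) or Gjb6 (right) and the 8 genes most like each, in 1318 cells at full depth (circles) and in 1041 cells thinned to 1000 UMIs (squares); the dashed line is the 95th percentile of r over 2571 genes at full depth. All r are at or below 0.28, and in thinned cells 4 genes for Gjb2 and 3 for Gjb6 lie to the right of the line.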

How the data were processed

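The deposited files hold counts: per the file headers and values, whole-number UMI counts per gene and barcode as the authors made them, with no normalization. Per the submitters' processing notes the genome was mm10. Aligner, counter and annotation release: not given in the sources used here. Groups came from GEO's labels. The genes and lists were chosen with earlier results of these data known.

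Counts were summed over the cells of a library and scaled to their total (CPM). Ratios are log2 ratios of CPM with 0.5 counts added to each sum. Intervals are exact Poisson, conditional binomial or Clopper-Pearson, at 95%. UMIs were taken as independent, which makes intervals too narrow for genes held by a few cells. Genes with at least 20 counts over both sums were compared. Where a sum was 0, folds are set against 3 counts, which is less strict than the exact 95% interval. Pairs of sums with 3 counts or fewer get no fold. No 2 libraries shared a cell barcode (0 shared). Doublets were kept. Cells of all libraries were clustered together with scanpy 1.11.5 (2000 variable genes, 30 principal components, 15 neighbours, Leiden resolution 1.0, no integration). Cluster names are a reconstruction, and those of the study may be others. The ratio rule was tested on simulated data.

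Named genes were the 3 connexin genes, Wap, Glycam1 and Csn2, connexin and pannexin genes with at least 20 counts in all, the 4 called genes with the most counts of each list, and the 8 most and 3 least alike genes. Alternatives changed the UMI minimum, the mitochondrial limit, deep cells, milk totals, thinning, added counts and the count minimum. Gene positions are from GENCODE M21 and promoters from RefSeq; Python 3.11.15, numpy 2.4.6, scipy 1.17.1 and pandas 2.3.3 were used.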

Additional observations from a re-analysis of the deposited data

How the results depend on the processing

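Of 125 alternative values over 26 results, 106 stayed near the main value and 19 moved, among them the r of Gja1 with Wap, which changed sign in thinned cells. The log2 ratio of Gjb2 in the tumor over the lesion was -6.27 without cells over 10000 UMIs (3 against 1191 UMIs, so most tumor UMIs were then left out) and -4.49 in thinned cells (4 against 338). That of Gjb6, fitted at -9.11, was -5.80 with 5 added counts, which follows from its 0 in the tumor. Genes called numbered 3056, against 1972 without cells over 10000 UMIs, 1097 in thinned cells and 1108 with a minimum of 100 counts. Those called lower numbered 655, against 431 in thinned cells, 308 with that minimum, 460 with 5 added counts, 781 with totals without milk genes and 816 without cells over 10000 UMIs. The higher minimum, thinning and leaving out cells over 10000 UMIs all test fewer genes: 5255, 5507 and 8724 in that order, against 9811. As a share of genes tested, 6.68% were lower in the main setting. The share was 7.83% in thinned cells, 7.96% with totals without milk genes and 9.35% without cells over 10000 UMIs. The cause of these differences was not tested.

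In thinned cells the r of Gjb2 was 0.088 with Wap, 0.057 with Glycam1 and 0.12 with Csn2. The r of Gjb6 was 0.035, 0.091 and 0.13, and that of Gja1 with Wap was 0.056 (main -0.024). The same cells at full depth gave 0.15, 0.16 and 0.24 for Gjb2 and 0.12, 0.16 and 0.23 for Gjb6, and the thinned values differ from these by construction only in the counts removed. Alternatives added after seeing the data were the thinned milk bins, the thinned likeness and the lesion without its 38 low-milk cells. Of these, the last left all 3 levels within counting error. Gjb6 in the late lung over the tumor had no value, with 0 counts in both. No paired analysis was possible because each group has 1 library. Depth limits the lungs most: 3 counts are 7.28 CPM in the late lung and 14.7 CPM in the early lung, against 1.64 CPM in the tumor and 0.764 CPM in the lesion.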
